A study of Homo sapiens with 2 samples.

Results

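Signals of the proteasome genes were compared between a control vector array and an FDFT1 vector array, each made from total RNA of stably transduced CL1-0 cells. CL1-0 is an established cell line from a human lung adenocarcinoma, and FDFT1 encodes squalene synthase, the first enzyme committed to sterol synthesis. Both kinds of cells had been selected with puromycin for 2 weeks; the promoter of the vector and the number of clones are not given in the labels. The genes were taken by symbol, as every gene named PSMA to PSMG with a number, except PSMB8 and PSMB9. This gave 48 of the 19775 genes that have a probe set of their own on the array, read by 95 probe sets. Of the 48 genes, 40 encode subunits, activators, an inhibitor or assembly factors of the proteasome. The other 8 carry such a symbol without being subunits and are described apart. Of the 40 proteasome genes 39 were measured, meaning that at least 1 array gave a signal at or above 12.2, the median of all signals. For the FDFT1 array this was judged after the shift between the arrays described below. The minimum of 12.2 is not a detection limit. PSMA8, the alpha subunit of the testis, was under it on both arrays, at signals of 0.63 and 6.36. PSMA6, PSMB11, PSMC5, PSMD7, PSMD13 and PSME2 were not analysed here, because the annotation used listed no probe set for them alone.

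The proteasome is the protease that degrades proteins tagged with ubiquitin. Its core particle is a barrel in which 2 outer rings of alpha subunits (PSMA) enclose 2 inner rings of beta subunits (PSMB), and 3 kinds of beta subunit carry the active sites. The regulatory particle caps the barrel: its base unfolds the substrate with ATPases (PSMC), and its lid removes the ubiquitin chain. Activators of the PSME family can cap the core in place of the regulatory particle, and dedicated chaperones (PSMG and some PSMD genes) assemble core and base. Proteasome genes are known to be transcribed together under NFE2L1, a factor that binds antioxidant response elements in their promoters.

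No proteasome gene differed by 1.5-fold or more between the arrays. The 39 measured genes lay between -0.23 for PSMD3 and 0.31 for PSMA2 on the log2 scale (FDFT1 minus control vector), with a median of 0.0035, against -0.0012 over all 13106 measured genes. Their SD was 0.12, against 0.17 over genes with a mean log2 signal of at least 9 and 0.13 over those at 11 or more, and 38 of the 39 lay within 0.25 of 0, PSMA2 being the exception. Differences are given after subtracting the median shift between the arrays, -0.11, from the FDFT1 array, so an unchanged typical gene is at 0. Signals are given as deposited, before this step, and a gene at a difference of 0 therefore has an FDFT1 signal of 92.9% of its control signal. After the shift 20 proteasome genes were above 0 and 19 below; as deposited the split was 9 to 30, after quantile normalization 14 to 25 and after loess 18 to 21. With 1 array per group no p-value can be given, and nothing can be said of the spread between cultures. In RNA from whole cultures, fewer expressing cells and less RNA per cell cannot be told apart.

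The background for these counts was as follows. Among all measured genes 0.656% were at least 2-fold higher with FDFT1 and 0.649% at least 2-fold lower; at 1.5-fold the shares were 4.14% and 3.4%. Large differences were mostly those of dim probe sets, and 38 of the 39 proteasome genes had a mean log2 signal of at least 9. Among the 3702 genes that bright, none reached 2-fold, and 0.459% were at least 1.5-fold higher and 0.054% lower. The absence of proteasome genes past 1.5-fold is therefore close to what genes of this brightness showed. The share within 0.25 of 0 was 97.4% for the proteasome genes, against 66.4% of all measured genes, 86.7% of genes with a mean log2 signal of at least 9 and 94% of the 989 genes at 11 or more; 26 of the proteasome genes were in that brightest range, and 96.2% of those were within 0.25.

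**Figure D1:**
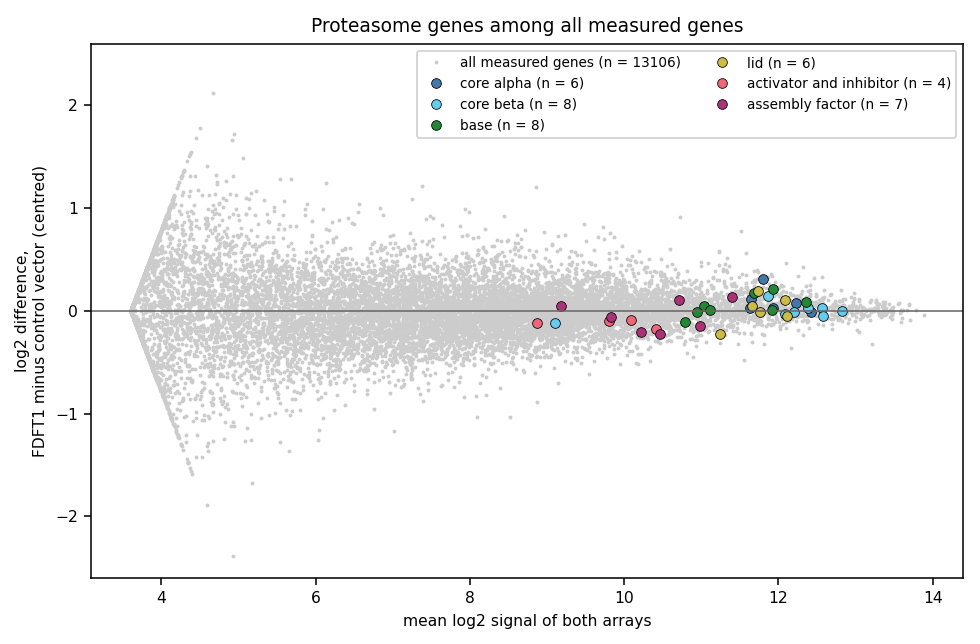
Log2 difference (FDFT1 minus control vector, centred) against the mean log2 signal of both arrays, 1 point per gene from its brightest probe set. Grey points are all 13106 measured genes and coloured points the 39 proteasome genes by role; these lie between -0.23 and 0.31, in the bright and narrow part of the cloud.

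An error for a single probe set was taken from all genes with at least 2 measured probe sets, proteasome genes included. The 2 brightest of a gene were compared where both lay in the same signal range. The error was the SD of the gap between their log2 differences, divided by the square root of 2. It was 0.16 for mean log2 signals from 9 to 11 and 0.10 above 11, and 0.50 under 5. It covers error between probe sets and not between cultures. By this measure 2 proteasome genes, PSMA2 and PSMC6, were higher by more than 2 errors, and PSMD3 was lower. PSMC6 was under 2 errors after quantile normalization (0.17), after loess (0.19) and as deposited (0.11), and PSMA2 as deposited (0.20) and with the mean of its probe sets (0.14). The counts are 5.13% and 2.56% of the 39 genes, against 3.96% and 3.16% of all measured genes and 5.81% and 2.57% of those with a mean log2 signal of at least 9, so both shares are near the background. At more than 1 error 8 genes were higher and 4 lower, against 16.5% and 16.4% of all measured genes and 19.7% and 14% of those with a mean log2 signal of at least 9.

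The 26 brightest proteasome genes, with a mean log2 signal of at least 11, were read against the 989 genes in that range. Of the 26, 18 were above 0 and 8 below (median 0.03); among the 989 genes 59.6% lay above 0 and 40.4% below it (median 0.02). More than 2 errors separated 7.69% of the 26 genes upward and 3.85% downward, against 8.59% and 2.33%. More than 1 error separated 8 genes upward and 1 downward, against 24.6% and 9.5%.

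**Figure D2:**
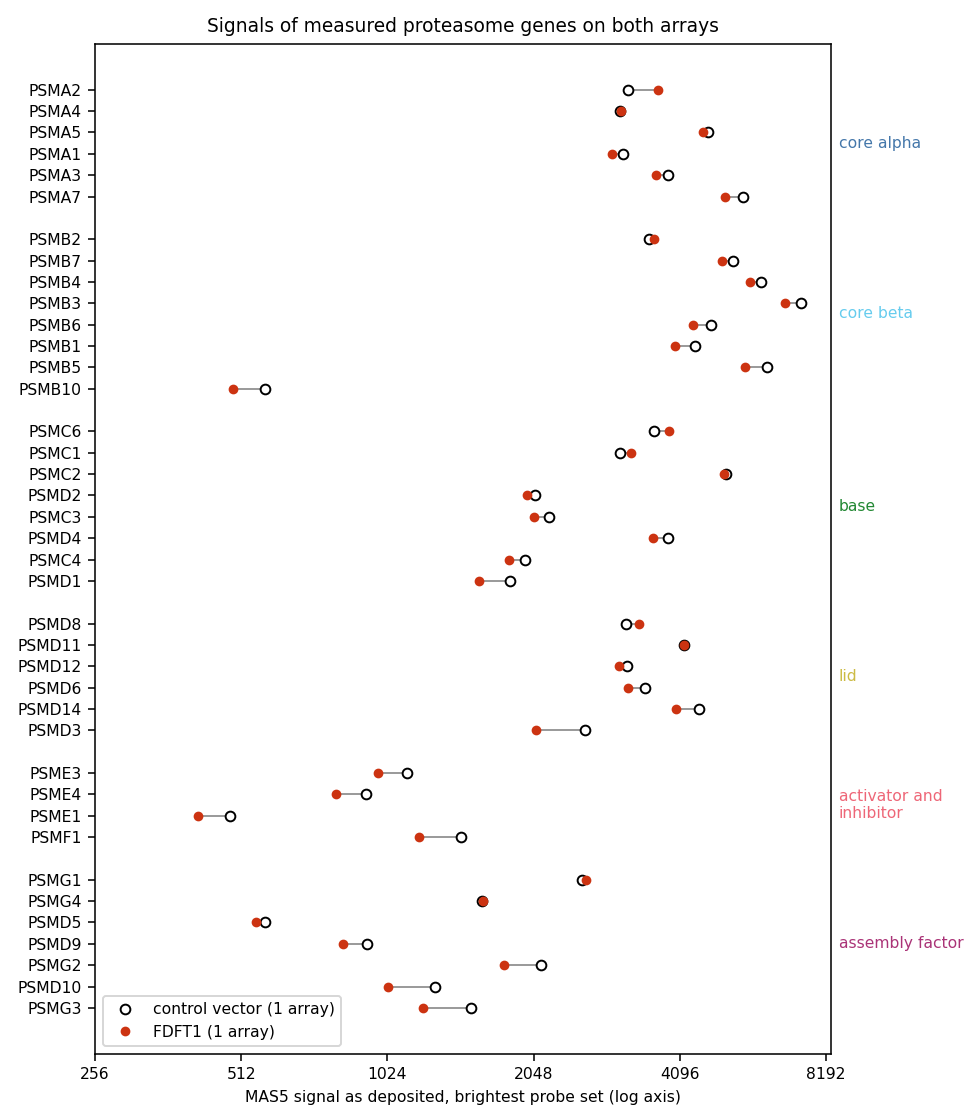
MAS5 signals as deposited, on a log axis, of the brightest probe set of each measured proteasome gene, grouped by role. Open circles are the control vector array and filled circles the FDFT1 array; most filled circles lie slightly to the left, as the FDFT1 array was lower by 0.11 on the log2 scale overall.

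Promoter sequence is shown here because these genes are known for shared control. RefSeq promoter windows (GRCh38.p14, 250 bases before to 50 after a start site) were matched by symbol for 34 of the 40 proteasome genes, in 40 windows. The short form of the antioxidant response element, TGANNNNGC on either strand, was found in 57.5% of these windows and in 41.8% of all 35116 windows. The stricter TGACNNNGC, which lies within it, was found in 30% and 13.3%, and TGACTCAGC, a form of both, in 0 of the 40 windows and in 0.561% of all. The CCAAT box was in 40% of the windows and 34.6% of all, and the GC box GGGCGG in 62.5% and 45.0% respectively. Base composition was not matched in these shares.

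The stretches below give 1 gene for each role with a TGACNNNGC match before a start site, so that the matches can be compared. The roles are core alpha, core beta, lid, activator and assembly factor. Among base genes the matches lay after the start site. PSMD3 was also the lowest gene and PSMA2, shown with its CCAAT box, the highest. Each is read 5′ to 3′ on the strand of the gene, ends at or before the start site of its window, and has the match in capitals. PSMA4 also has windows for start sites further upstream, and the match shown lies after those start sites.

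PSMA4, chr15:78540620-78540708, plus strand: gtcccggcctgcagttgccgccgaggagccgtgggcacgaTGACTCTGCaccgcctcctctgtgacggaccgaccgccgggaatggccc

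PSMB3, chr17:38752597-38752685, plus strand: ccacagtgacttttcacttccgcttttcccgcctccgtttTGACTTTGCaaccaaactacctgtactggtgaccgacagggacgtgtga

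PSMD3, chr17:39980730-39980806, plus strand: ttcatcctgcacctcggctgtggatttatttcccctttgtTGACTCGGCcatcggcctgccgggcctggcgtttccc

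PSME1, chr14:24136068-24136156, plus strand: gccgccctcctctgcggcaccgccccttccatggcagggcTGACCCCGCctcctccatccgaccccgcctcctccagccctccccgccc

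PSMG1, chr21:39183586-39183674, minus strand: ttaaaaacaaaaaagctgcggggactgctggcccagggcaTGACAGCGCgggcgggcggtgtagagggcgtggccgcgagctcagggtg

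PSMA2, chr7:42932214-42932298, minus strand: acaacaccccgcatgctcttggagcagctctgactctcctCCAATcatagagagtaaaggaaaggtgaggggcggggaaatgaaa

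The matches differ in the free letters of the motif, as TGACTCTGC in PSMA4, TGACTTTGC in PSMB3, TGACTCGGC in PSMD3, TGACCCCGC in PSME1 and TGACAGCGC in PSMG1. They start 126, 104, 37, 86 and 183 bases before the start site of the window used, in that order. The CCAAT box of PSMA2 starts 84 bases before its start site. The 12 measured genes with a TGACNNNGC match had differences of -0.23 to 0.13 with a median of -0.03, 4 of them above 0. The 21 without one had differences of -0.21 to 0.31 with a median of 0.03, 14 of them above 0. The ranges overlap over most of their length. Among all measured genes 49.8% were above 0. Of 20 measured genes with the looser TGANNNNGC, 10 were above 0 (median 0.0005), and of 13 without it 8 (median 0.05). With a CCAAT box 9 of 16 were above 0, and without one 9 of 17. With a GC box 12 of 21 were above 0, and without one 6 of 12. None of these splits was tested. A match says that the letters are there and not that a factor binds them.

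The alpha subunits form the outer rings and the gate through which substrates enter. Of 7 alpha genes 6 were measured, 5 above 0 and 1 below, with a median of 0.05. By comparison, 49.8% of all measured genes were above 0, and 52.6% of those with a mean log2 signal of at least 9. All 6 alpha genes had a mean log2 signal of at least 11, where the share above 0 was 59.6%. PSMA2 had signals of 3204 with the control vector and 3693 with FDFT1, a difference of 0.31 with an error of 0.10, or 1.24-fold. It was the highest of the proteasome genes and higher as deposited too. Its other probe set, dimmer at 324 and 295, lay at -0.03, so the difference of PSMA2 rests on 1 probe set. PSMA4 had signals of 3087 and 3100 (0.11), and PSMA5 4675 and 4570 (0.07). PSMA1 was at 0.03 (3128 and 2968), PSMA3 at 0.02 (3874 and 3662) and PSMA7 at -0.01 (5526 and 5085). These 3 differences, each from the brightest probe set, are well under the error of 0.10. The other 2 probe sets of PSMA1, nearly as bright, were at -0.12 (2993 and 2560) and -0.05 (2676 and 2402). With the mean of its probe sets PSMA1 lay at -0.05, so its sign depends on the probe set.

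The beta subunits form the inner rings, where PSMB5, PSMB6 and PSMB7 cut after hydrophobic, acidic and basic residues. All 8 beta genes were measured, 3 above 0 and 5 below, with a median of -0.01. By comparison, 52.6% of genes with a mean log2 signal of at least 9 were above 0, and 59.6% of those at 11 or more. The catalytic genes kept close to 0. PSMB5 had signals of 6207 and 5573, a difference of -0.05. PSMB6 had 4748 and 4364 (-0.02) and PSMB7 5280 and 5010 (0.03). All these differences are under the error of 0.10. PSMB10, which takes the place of PSMB7 in the immunoproteasome, the form induced by interferon, was the lowest beta gene at -0.11 (573 and 492, error 0.16). The structural subunits PSMB1 (4401 and 3996, -0.03), PSMB3 (7288 and 6750, -0.0046) and PSMB4 (6021 and 5712, 0.03) also differed by less than their error of 0.10.

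PSMB2, a structural beta subunit, was the highest beta gene and higher on each of its probe sets. Its brightest probe set had signals of 3534 and 3630, a difference of 0.14 with an error of 0.10. The next had 262 and 336 (0.46, error 0.22), and the third had 43.8 and 58.6 (0.53, error 0.31). The dimmest went from 6.21 to 14.8, at least 0.39 because the control signal was under the minimum. All 4 signals were also higher as deposited. The mean over the 4 probe sets, with the last at its bound, was 0.38, against 0.14 for the brightest alone. The second probe set has the ending _x_at, which marks probes that can match other transcripts, so it may not read PSMB2 alone.

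The base holds the ring of ATPases that unfolds substrates, with the scaffold subunits PSMD1 and PSMD2 and the ubiquitin receptor PSMD4. All 8 base genes with a probe set of their own were measured, 6 above 0 and 2 below, with a median of 0.03. Of all genes with a mean log2 signal of at least 9, 52.6% were above 0, and of those at 11 or more 59.6%. As deposited the base median was -0.077. The ATPases gave the 3 highest values. PSMC6 had signals of 3625 and 3899 (0.21), PSMC1 3087 and 3245 (0.18) and PSMC2 5106 and 5046 (0.09), each with an error of 0.10. PSMC3 (2205 and 2057) and PSMC4 (1969 and 1819) lay at 0.0056 and -0.0087, with errors of 0.10 and 0.16. PSMC2 was further read by probe sets at 115 and 152 (0.51, error 0.22) and at 206 and 177 (-0.11), which lie on opposite sides.

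PSMD2 was at 0.05 (2059 and 1983). PSMD1 was the lowest base gene with a PSM symbol. It lay at -0.10 on its brightest probe set (1834 and 1584, error 0.16) and at -0.29 on the other (1808 and 1371). Both signals of PSMD1 were lower with FDFT1. PSMD4 was read by 3 bright probe sets at 0.0035 (3872 and 3606), -0.08 and 0.06. Its dim probe set went from 18.7 to 3.65, at least 0.62 lower against the minimum with an error of 0.50. This was the only probe set of the 40 proteasome genes past 1.5-fold, and the bright ones of PSMD4 did not share it.

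**Figure D3:**
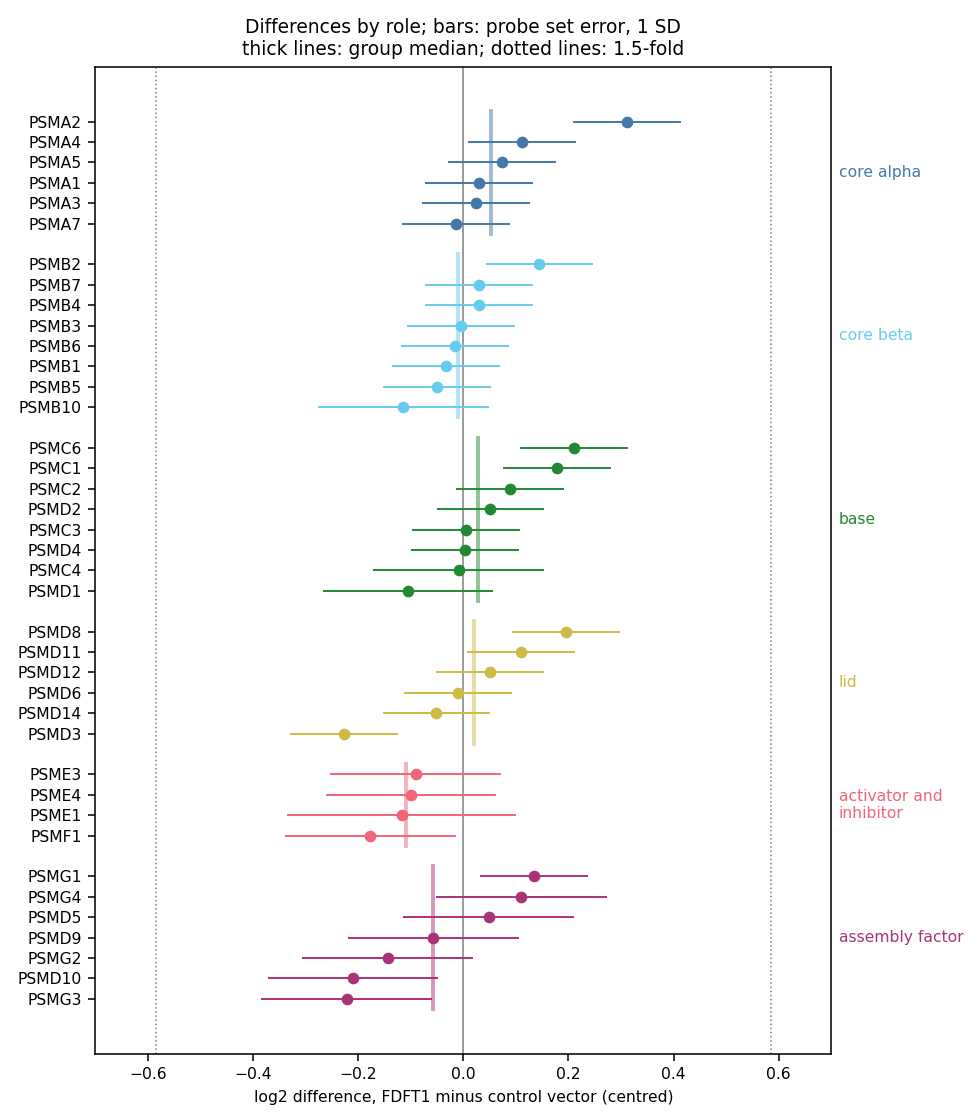
Log2 difference (FDFT1 minus control vector, centred) of each measured proteasome gene by role, from the brightest probe set. Bars are the probe set error (1 SD, from pairs of probe sets over all genes), thick lines the group medians and dotted lines 1.5-fold. No gene reaches the dotted lines, and the 4 activator and inhibitor genes are all below 0.

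In the lid, PSMD14 is the enzyme that cuts the ubiquitin chain off the substrate. All 6 lid genes with a probe set of their own were measured, 3 above 0 and 3 below, with a median of 0.02. All 6 had a mean log2 signal of at least 11, where 59.6% of genes were above 0. PSMD14 had signals of 4483 and 4021, a difference of -0.05 with an error of 0.10. The lid held both a high and a low gene: PSMD8 was at 0.20 (3181 and 3384) and PSMD3, a structural subunit, at -0.23 (2609 and 2072). These are also on opposite sides as deposited. Each is read by 1 measured probe set. PSMD11 was at 0.11 (4177 and 4188), PSMD12 at 0.05 (3185 and 3067) and PSMD6 at -0.0093 (3466 and 3200). The second probe set of PSMD12, dimmer at 672 and 760, was at 0.28 with an error of 0.16. That of PSMD11, at 303 and 269, was at -0.07 with an error of 0.22, on the other side of 0 from its brightest.

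The differences of core, base and lid genes overlapped. The 14 core genes had a median of 0.03 and a range of -0.11 to 0.31, and the 14 base and lid genes a median of 0.03 and a range of -0.23 to 0.21. As deposited the medians of all 4 groups were below 0, at -0.054 for alpha, -0.12 for beta, -0.077 for base and -0.085 for lid genes, near the shift of -0.11 between the arrays.

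The activators open the core without ubiquitin, and PSMF1 was first described as an inhibitor of the core. All 4 measured genes of this group were below 0, with a median of -0.11. The share below 0 was 50.2% of all measured genes and 47.4% of those with a mean log2 signal of at least 9. That brighter set includes the 989 genes at 11 or more, of which 40.4% were below 0. The 4 genes were dimmer than those, with mean log2 signals of 8.87 to 10.4. PSME1, a subunit of the interferon-induced cytoplasmic activator, had signals of 486 and 417 (-0.12, error 0.22). PSME3, which forms the nuclear activator, had 1123 and 980 (-0.09, error 0.16) and PSME4, the large activator of histone degradation, 925 and 802 (-0.10, error 0.16). PSMF1 had 1450 and 1192, a difference of -0.18 with an error of 0.16, and was the only one of the 4 past its error. Their range, -0.18 to -0.09, lies inside the ranges of the lid and assembly factor genes. The lowest base gene with a PSM symbol was at -0.10.

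The further probe sets of these genes were mostly on the same side. PSME3 was lower on 4 of 4 probe sets, from -0.03 to -0.34, with the dimmest at signals of 212 and 155. PSME4 was lower on 2 of 3, the other being at 0.02 (47.5 and 44.8). PSMF1 was lower on 3 of 4, with its second brightest probe set at 0.06 (701 and 677). With the mean of the probe sets in place of the brightest, the group ranged from -0.16 to -0.05.

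The assembly factors build the proteasome and are not part of it once finished. All 7 were measured, 3 above 0 and 4 below, with a median of -0.06. The share above 0 was 49.8% among all measured genes and 52.6% among those with a mean log2 signal of at least 9. PSMG1 and PSMG2 act as 1 dimer in forming the alpha ring, and they lay apart: PSMG1 was at 0.13 (2578 and 2630, error 0.10) and PSMG2 at -0.14 (2120 and 1783, error 0.16). The other dimer did so as well. PSMG3 had signals of 1524 and 1214 (-0.22, error 0.16), the lowest of the group, and PSMG4 1607 and 1611 (0.11, error 0.16). A dim probe set of PSMG4 (47.4 and 39.2) was at -0.17.

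The base chaperones lay between -0.21 and 0.05. PSMD10, the oncoprotein gankyrin, had signals of 1281 and 1029, a difference of -0.21 with an error of 0.16, and its second probe set was at -0.15 (648 and 542). PSMD9 was at -0.06 (930 and 831), with a dim probe set at -0.25 (43.8 and 34.1). PSMD5 was at 0.05 (572 and 549), under its error of 0.16.

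**Figure D4:**
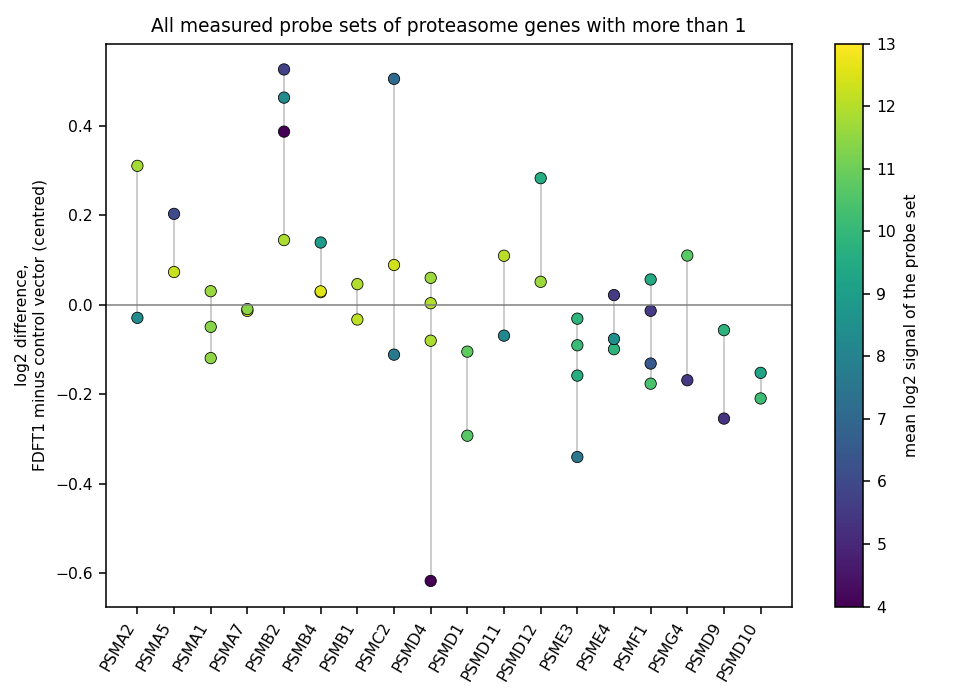
Log2 difference (FDFT1 minus control vector, centred) of each measured probe set of the 18 proteasome genes with more than 1, coloured by the mean log2 signal of the probe set. Grey lines join the probe sets of a gene; the widest gaps, in PSMD4 and PSMC2, are those of dim probe sets, and all 4 probe sets of PSMB2 are above 0.

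Probe sets of the same gene agreed about as often as in other genes. Of the 18 proteasome genes with at least 2 measured probe sets, 9 had all of them on one side of 0, 4 higher (PSMA5, PSMB2, PSMB4 and PSMD12) and 5 lower (PSMA7, PSMD1, PSMD9, PSMD10 and PSME3). How often all probe sets of a gene lay on one side was not counted over all genes. The 2 brightest had the same sign in 55.6% of the 18 genes, against 55.0% of 6618 genes in all. The signs of 2 probe sets of a gene thus often differed, here and over all genes. The 51 measured probe sets with a mean log2 signal of at least 9 had an SD of 0.13, and 3 of them were at or past 0.25. The 18 dimmer probe sets had an SD of 0.31, with 7 at or past 0.25.

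The 8 remaining genes with such a symbol comprise PSMC3IP, a cofactor of meiotic recombination, PSME3IP1, a partner of PSME3, and 6 noncoding RNAs named for a neighbouring gene. PSMC3IP was at 0.06 (759 and 734) and PSME3IP1 at 0.09 (885 and 878), each on the brightest probe set. PSME3IP1 was higher on 2 of 4 probe sets, the lower ones being at -0.16 and -0.23, and lay at -0.05 with the mean of the 4. PSMA3-AS1 was at 0.13 on its brightest probe set (134 and 136) but at -0.47 (46.6 and 31.3) and -0.86 (25.9 and 13.2) on the others. The probe sets of this antisense RNA thus disagree in sign, and the last has an error of 0.50. PSMD6-AS2 was at 0.13 (52.0 and 53.1) and -0.27, and PSMG3-AS1 at 0.31 (24.0 and 27.6, error 0.50). PSMB8-AS1, PSMD7-DT and PSMD14-DT were under the minimum on both arrays.

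The partners of the proteasome outside this naming were compared through a list of 30 genes, of which 25 were measured. By the brightest probe set 10 lay above 0 and 15 below it (median -0.01). Over all measured genes 49.8% were above 0, and 52.6% of those with a mean log2 signal of at least 9. None of the 25 genes was at or past 1.5-fold by its brightest probe set. Among the dim probe sets 2 were past it: 1 of ZFAND5, a factor that activates the proteasome, was at least 1.28 higher (11.9 and 27.5, error 0.50), and 1 of UBQLN4, a shuttle for ubiquitinated proteins, was at 0.63 (32.3 and 46.3, error 0.31). The brightest probe sets of these genes were at 0.05 for ZFAND5 (2826 and 2726) and -0.01 for UBQLN4 (823 and 759). The share of dim probe sets past 1.5-fold was not counted over the array. ADRM1, a ubiquitin receptor of the base, was at -0.19 (1974 and 1610, error 0.16). NFE2L1, the transcription factor of proteasome genes, was at -0.19 (1208 and 982, error 0.16) and lower on 3 of 3 probe sets. NFE2L2, its relative of the antioxidant response, was at 0.24 (3917 and 4302, error 0.10), and its second probe set at 0.21 (286 and 309). The dimmest was at -0.49 (22.2 and 14.6, error 0.50).

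The lowest of the list were NPLOC4, a cofactor of the unfoldase VCP, at -0.40 (768 and 541, error 0.16) and UBA1, the main ubiquitin-activating enzyme, at -0.32 (1954 and 1451). NPLOC4 was past 2 errors. The second probe set of UBA1 was dim (17.0 and 16.4) and lay at 0.06. The highest was UBLCP1, a phosphatase of the regulatory particle, at 0.49 (910 and 1191, error 0.16) on an _x_at probe set, whereas its other probe set was at -0.03. UBLCP1 and NFE2L2 were higher by more than 2 errors, so 8% of the 25 genes were higher and 4% lower by that measure, against 5.81% and 2.57% of genes with a mean log2 signal of at least 9. With the mean of the probe sets UBLCP1 was at 0.23 and NFE2L2 at -0.01, both under 2 errors. As deposited NFE2L2 was at 0.14, also under 2 errors. MIDN, which carries substrates to the proteasome without ubiquitin, was at 0.19 (141 and 150, error 0.22), and USP14, a deubiquitinase bound to the base, at 0.13 (2611 and 2653, error 0.10).

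The labels call CL1-0 a type II alveolar cell, and its surfactant genes were dim or under the minimum. Of 9 type II markers with a probe set 7 were measured, with a summed signal of 1547 and 1273, most of it from LPCAT1 (934 and 787) and ETV5 (383 and 281), which other cell types also express. SFTPC, surfactant protein C, had signals of 29.3 and 16.9, and NKX2-1, the transcription factor of these cells, 31.1 and 29.3, while SFTPD and NAPSA were under the minimum on both arrays. Of 5 epithelial markers 3 were measured, with dim signals for KRT8 (15.0 and 18.8), KRT18 (20.1 and 12.1) and EPCAM (5.63 and 14.4), while CDH1 and KRT19 were under the minimum. The summed signal of the 5 was 50.1 with the control vector and 50.6 with FDFT1. Blood markers summed to 81.4 and 87.4 (4 of 6 measured) and fibroblast and endothelial markers to 114 and 126 (3 of 7 measured). The level of FDFT1 was not analysed here, and the labels of the arrays were not checked against it.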

How the data were processed

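RNA of 2 samples of CL1-0 cells, 1 with a control vector and 1 with an FDFT1 vector per the sample titles, was read on 1 Affymetrix array each. The deposited values are signal intensities on a linear scale made by the authors with MAS5, per the submitters' processing notes; its scaling target and any detection calls were not given in the sources used here. Precision is limited by the number of arrays.

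With Python 3.11.15, numpy 2.4.6 and pandas 2.3.3, 62 control probe sets were set aside, the FDFT1 array was shifted by the median log2 difference over probe sets at or above the median of all signals on both arrays, lower values were set to that floor of 12.2, and a gene took its brightest measured probe set. Names came from the platform annotation (1 gene for 41091 probe sets, several for 1801, which were left out); all 48 members were found in the GRCh38.p14 gene table. The genes, role groups and lists were chosen with earlier results of these data known. All genes found may be named; values are given for the extremes of each role, the catalytic, PSME, PSMF and PSMG genes, probe sets past 1.5-fold, the genes of the partner list furthest from 0, and other members as examples. The steps were tested on simulated data. Alternatives were other scalings, floors and probe set choices, and list means.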

Additional observations from a re-analysis of the deposited data

How the results depend on the processing

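Of 119 recomputed medians and counts for the proteasome genes, 108 stayed within the probe set error or, for counts, within 1.5 times. Part of this was fixed in advance, as these genes are bright. Without a floor none of the values changed, and with the floor at the 75th percentile the median moved from 0.0035 to 0.0061. A count of 0 past 1.5-fold or 2-fold that stayed at 0 was also taken as kept. Counts past 2 probe set errors and within 0.25 were added after seeing the data. With the values as deposited the median was -0.10 for all proteasome genes, -0.054 for alpha, -0.12 for beta, -0.077 for base and -0.085 for lid genes; 0 genes were then higher by more than 2 errors and 2 lower. This alternative leaves the shift of -0.11 in every value. It moved 26 of 39 genes by more than 1 error and turned the sign of 11. After quantile normalization 1 gene was higher by more than 2 errors, after loess 1 (PSMC6 no longer was), and without _x_at and _s_at probe sets 1 of 30. Without those probe sets 1 gene was at least 1.5-fold lower, PSMD4 at -0.62, as only its dim probe set was left, PSMA2 was at -0.03 and PSMB2 at 0.53. The median of all proteasome genes changed sign after quantile normalization (-0.02), loess (-0.02), with the mean or median of probe sets (-0.0087) and without _x_at and _s_at probe sets (-0.02). The activator and inhibitor genes were below 0 in 4 of 4, or 3 of 3, under the main setting and each of the 8 alternatives for scaling, floor and probe set. These settings use the same 2 arrays and are not independent. For these genes 3 of the settings could hardly change the sign. Their range without a floor was the main one, -0.18 to -0.09, and with the floor at the 75th percentile -0.17 to -0.09. As deposited the shift only lowers each value. In the main setting only PSMF1 was past its error. No paired analysis was possible because each group has 1 array.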
